A study of Mus musculus with 23 samples.

Results

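The mitochondrial carriers of the Slc25 family were followed in mouse embryonic stem cells (ESCs) from which the zinc-finger protein Zbtb11 was deleted, by RNA-seq of the genes and by Zbtb11 ChIP-seq at their promoters. Members were the genes whose GENCODE vM1 symbol starts with Slc25a and that had more than 1 CPM (counts per 1000000 reads on genes) in at least 3 of the 9 RNA-seq libraries. Of the 44 *Slc25a* genes in the count files 40 met this rule, among 14346 genes tested and 37310 gene identifiers in all. None of the 40 carriers passed the test in *Zbtb11* KO cells against the EtOH control, where 0.899% of all tested genes did. A Zbtb11 ChIP-seq window lay at 20 of the 40 carrier promoters, and 2 of these windows belonged to the strongest class of Zbtb11 peaks.

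Slc25 proteins are small membrane proteins encoded in the nucleus, most of which sit in the inner mitochondrial membrane, where each exchanges or imports particular metabolites between the cytosol and the matrix. They supply ADP and phosphate for ATP synthesis, export ATP and citrate, and move amino acids, nucleotides, cofactors, iron and glutathione across a membrane that is otherwise closed to them. A few members work elsewhere, such as *Slc25a17* in peroxisomes and *Slc25a46* in the outer mitochondrial membrane. The family includes broadly expressed genes and genes that are mostly expressed in testis, liver, muscle or brain, so a single cell type uses the members to very different extents.

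All cells derived from the mouse ESC line E14 and were grown without feeder cells in medium with serum and LIF. The EtOH control and the *Zbtb11* KO were the same Zbtb11lox/lox line with ERt2-Cre in the Rosa26 locus, a line isolated as a homozygous clone after genome editing, given either the solvent ethanol or 250 nM 4-hydroxytamoxifen (4OHT), which activates Cre and removes exon 3 of *Zbtb11*. The 4OHT control was Zbtb11WT/WT cells with an unedited Rosa26 locus given 250 nM 4OHT, so that line and treatment both separated it from the EtOH control and cannot be told apart. Each group was sampled at 48 h in 3 biological replicates. Zbtb11 occupancy was measured in 4 libraries made with a Zbtb11 antibody in wild-type E14 cells and in 3 FLAG libraries from Zbtb11FLAG/FLAG cells, whose Zbtb11 carries a FLAG tag.

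The RNA-seq libraries held 14301457 to 23876604 reads on genes, of which the *Slc25a* genes took 0.208 to 0.246%. Replicate 1 stood apart from replicates 2 and 3 in every group, and the common biological coefficient of variation was 0.174 with all replicates, 0.068 without replicate 1 and 0.0533 with the replicate number as a block in the fit. The counts of carriers that passed are therefore given in all these fits where they differ. For single genes often only the adjusted p with the block is given. No carrier passed in any comparison of the groups with all libraries and no block. The 7 ESC markers summed to 3660 to 4285 CPM in every library (before TMM normalisation). On the same scale the 8 markers of differentiated cells summed to 19.9 to 29.1 CPM, of which *Sox17*, *Fgf5*, *T* and *Cdx2* stayed below the filter. The deletion could not be checked in the counts, because the annotation behind the counts gives its transcript to the identifier of *Rpl24*, which lies beside it. In bulk RNA, fewer cells and less RNA per cell cannot be told apart.

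Carrier transcripts spanned a wide range of levels in ESCs. To compare levels between genes, CPM were divided by exonic length in kilobases (RPKM). In the EtOH control 14 of the 40 members were above 10 RPKM and 4 were below 1 RPKM. The highest was *Slc25a5*, an ADP/ATP carrier, with 290.0 ± 23.8 RPKM (SD, n = 3), which was 743-fold the level of the lowest, *Slc25a48*, a carrier of unassigned substrate with 0.39 ± 0.071 RPKM. The next levels were those of *Slc25a39*, a mitochondrial glutathione carrier, with 82.6 ± 4.1 RPKM, and of *Slc25a4*, the other main ADP/ATP carrier, with 77.1 ± 4.89 RPKM. These neighbours in the order did not differ beyond their spread. Below them came the phosphate carrier *Slc25a3* with 55.4 ± 3.84 RPKM and the citrate carrier *Slc25a1*, which exports citrate for lipid synthesis, with 35.4 ± 5.54 RPKM. *Slc25a1* in turn did not differ beyond its spread from *Slc25a13*, an aspartate-glutamate carrier of the malate-aspartate shuttle, with 33.9 ± 0.508 RPKM. The 5 members with the most CPM took 64.2% of all carrier CPM in the EtOH control.

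**Figure D1:**
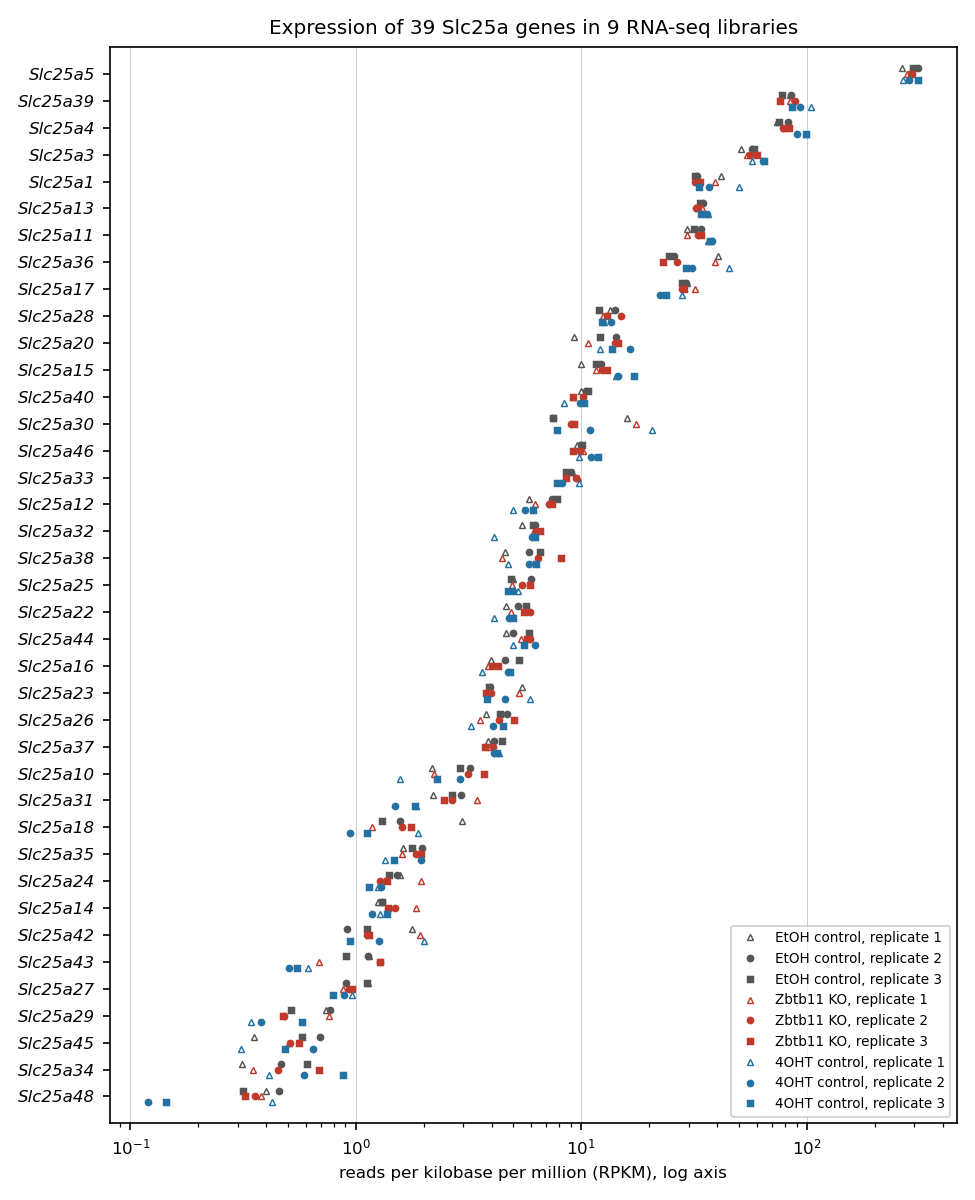
Expression of 39 of the 40 *Slc25a* members by library, as RPKM (log axis), ordered by the mean of the EtOH control. Each point is 1 library (open triangles replicate 1, circles replicate 2, squares replicate 3), and the 9 points of a gene lie close together beside the 743-fold range between *Slc25a5* and *Slc25a48*.

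Pairs of carriers with related substrates were expressed unequally. Of the mitoferrins, which import iron, *Slc25a28* had 13.2 ± 1.09 RPKM and *Slc25a37*, the form of red blood cell precursors, 4.14 ± 0.288 RPKM. Of the glutamate carriers *Slc25a22* had 5.19 ± 0.527 RPKM and *Slc25a18* 1.95 ± 0.896 RPKM. The aspartate-glutamate carrier *Slc25a12* stood at 7.03 ± 1.02 RPKM, below *Slc25a13*, with no overlap between their libraries. *Slc25a31*, the ADP/ATP carrier best known from testis, reached only 2.6 ± 0.359 RPKM. The 4 genes that missed the filter were *Slc25a2*, an ornithine carrier, *Slc25a21*, *Slc25a41* and *Slc25a47*, and none of them exceeded 1.14 CPM in any library (before TMM normalisation). Of the members, 35 had more than 1 CPM in all 9 libraries, and the other 5 (*Slc25a29*, *Slc25a34*, *Slc25a43*, *Slc25a45* and *Slc25a48*) in 7 libraries each, so their values rest on few reads.

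The comparison of *Zbtb11* KO with the EtOH control asks which genes depend on Zbtb11 in the same cell line. No carrier passed the test. By the quasi-likelihood test of edgeR with Benjamini-Hochberg adjustment, the lowest adjusted p of any member was 1 with all 9 libraries, and 0 of 40 had an unadjusted p under 0.05. The count was also 0 of 40 in DESeq2, where again 0 members had an unadjusted p under 0.05 and 1.25% of all tested genes passed. Without replicate 1 it was 0 of 40 beside 1.5% of all tested genes, with 1 member at an unadjusted p under 0.05. With the replicate block it was 0 of 40 beside 2.25%, with 2 members at an unadjusted p under 0.05 and a lowest adjusted p of 0.379. The median log2 fold change of the members was 0.03, beside a median of -0.001 over all tested genes, and 36 of the 40 lay within 0.2 of 0.

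The intervals say how large a change these libraries could still hold. Without the block, the 95% interval of the log2 fold change lay within 0.5 of 0 for 24 of the 40 members and within 1 of 0 for 37. With the block these counts were 32 and 40. The narrowest of the 40 intervals without the block were -0.18 to 0.11 for *Slc25a13* and -0.11 to 0.23 for *Slc25a4*. With the block, 5 members kept a lower bound below -0.5, namely *Slc25a18*, *Slc25a27*, *Slc25a29*, *Slc25a45* and *Slc25a48*, none of which was above 2 RPKM in the EtOH control.

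**Figure D2:**
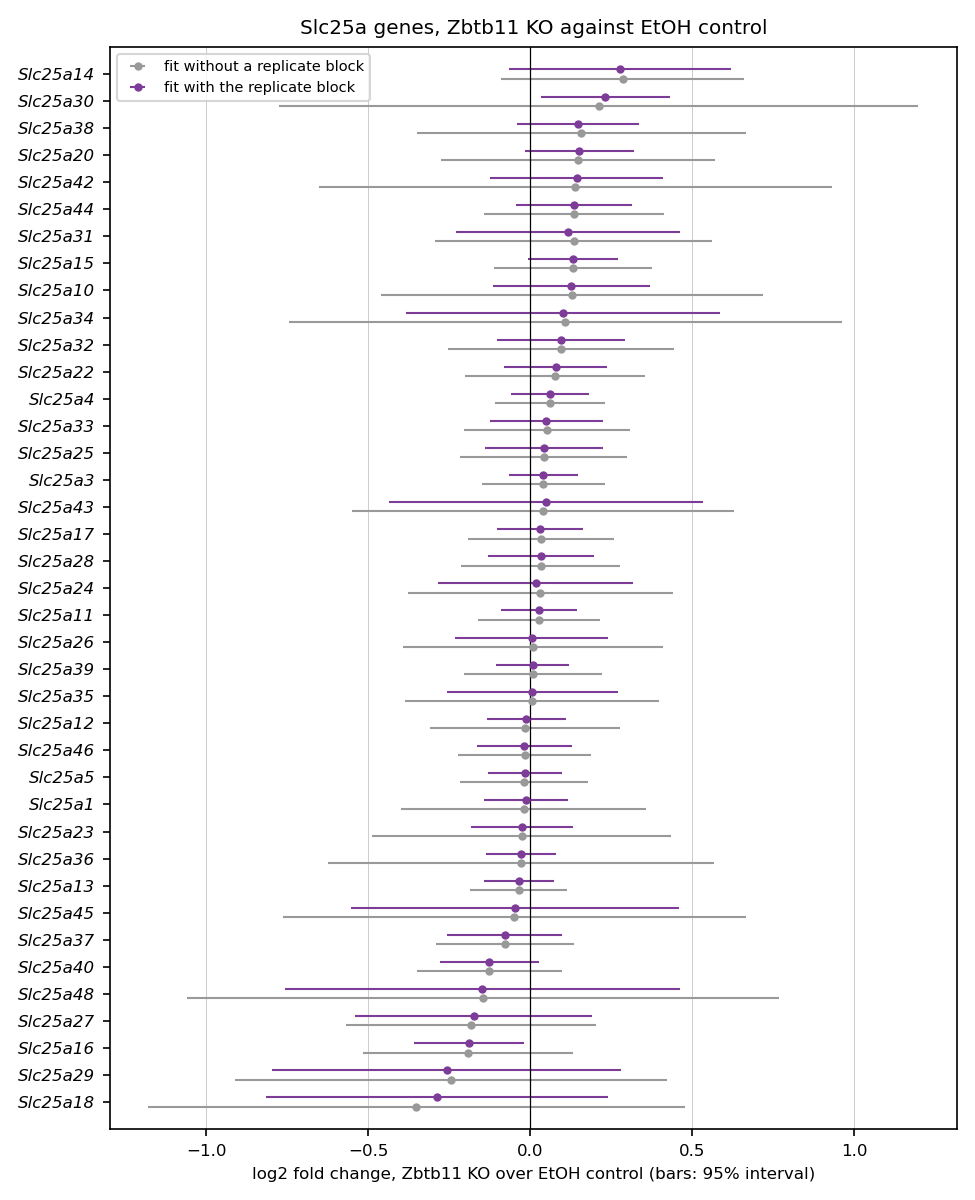
Log2 fold change of 39 of the 40 carriers in *Zbtb11* KO over EtOH control (n = 3 per group), with 95% intervals, in the edgeR fits without (grey) and with (purple) the replicate block. The values run from -0.35 to 0.29 without the block, and with it only the intervals of *Slc25a30* and *Slc25a16* leave out 0.

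Some of the members at both ends of the order were low. *Slc25a18*, which moves glutamate into the matrix, had 4.11, 2.18 and 1.8 CPM in the EtOH control, 1.63, 2.23 and 2.43 CPM in *Zbtb11* KO and 2.6, 1.31 and 1.55 CPM in the 4OHT control (replicates 1, 2 and 3 in this order, as in all such lists here). Its fold change of -0.35 ± 0.37 (log2, SE) included replicate 1 of the EtOH control, the highest library of the gene, and the value was 0.22 without replicate 1. *Slc25a29*, a carrier of basic amino acids, was measured at 1.93, 2.01 and 1.34 CPM in the EtOH control, 1.98, 1.26 and 1.24 CPM in *Zbtb11* KO and 0.89, 0.991 and 1.51 CPM in the 4OHT control, with a log2 fold change of -0.24 ± 0.29 and groups that overlapped. *Slc25a16*, required for coenzyme A in the matrix, stood at 19, 22.1 and 25.4 CPM in the EtOH control, 18.4, 19.4 and 20.5 CPM in *Zbtb11* KO and 17.4, 22.6 and 23.2 CPM in the 4OHT control. It was lower in *Zbtb11* KO in 3 of 3 replicate pairs, with a log2 fold change of -0.19 ± 0.08 with the block, but did not pass (adjusted p = 0.413 with the block).

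At the other end, *Slc25a14*, an uncoupling-like carrier, had 2.97, 3.07 and 3.09 CPM in the EtOH control, 4.36, 3.53 and 3.27 CPM in *Zbtb11* KO and 3.01, 2.79 and 3.24 CPM in the 4OHT control. It was the single member whose *Zbtb11* KO and EtOH control libraries did not overlap, a share of 2.5% of members beside 7.21% of all tested genes, and its log2 fold change of 0.29 ± 0.17 did not pass. *Slc25a30*, another uncoupling-like carrier, showed 27.3, 12.7 and 12.8 CPM in the EtOH control, 29.9, 15.4 and 15.8 CPM in *Zbtb11* KO and 35.1, 18.6 and 13.3 CPM in the 4OHT control. The KO value was above the EtOH value in 3 of 3 replicate pairs, with a log2 fold change of 0.23 ± 0.10 and an adjusted p of 0.379 with the block. *Slc25a38*, a glycine carrier needed for the first step of haem synthesis, was at 12.5, 16.2 and 18.1 CPM in the EtOH control, 12.3, 17.6 and 22.3 CPM in *Zbtb11* KO and 12.9, 16.1 and 17.4 CPM in the 4OHT control, with a log2 fold change of 0.16 ± 0.22 and overlapping groups.

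The carriers were also read by class of substrate. Over the 14 carriers of nucleotides and cofactors the median log2 fold change was 0.03, over the 9 carriers of amino acids and related substrates 0.08, over the 4 of carboxylates and phosphate 0.03, and over the 4 of metals and glutathione -0.03. It was 0.21 over the 3 uncoupling-like carriers, which ran from -0.18 for *Slc25a27* to 0.29 for *Slc25a14*. Over the 6 other or unassigned ones it was -0.006. In each class 0 members passed in any of the 3 edgeR fits. The abundant *Slc25a5* had 434, 509.9 and 488 CPM in the EtOH control, 456, 483 and 476 CPM in *Zbtb11* KO and 439, 468 and 515 CPM in the 4OHT control, with a log2 fold change of -0.02 ± 0.09 and overlapping groups. *Slc25a13* had 106, 108 and 105 CPM in the EtOH control, 108, 101 and 103 CPM in *Zbtb11* KO and 114, 113 and 106 CPM in the 4OHT control, and its log2 fold change was -0.03 ± 0.07. For *Slc25a5*, and for *Slc25a36* and *Slc25a40*, stretches of 500 or more bases that are 95% or more identical lie elsewhere in the mm9 genome, so that their reads may be shared with other copies. A further limit is overlap with other genes: 12 members overlap a gene on the other strand, among them *Slc25a10*, *Slc25a11*, *Slc25a12*, *Slc25a36* and *Slc25a46*, and *Slc25a3*, *Slc25a16* and *Slc25a43* hold a small RNA gene or pseudogene on their own strand.

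Zbtb11 occupancy was read from the 7500 windows of 1200 bases that hold the peaks common to the antibody and FLAG ChIP-seq. A promoter was the stretch from 2 kb upstream to 500 bases downstream of any annotated transcript start. A window reached the promoter of 20 of the 40 members (50%), where 31.1% of all tested genes had one. For 13 of the 20 the centre of the strongest window lay within 250 bases of a start. The windows of *Slc25a23* and *Slc25a33* were centred farthest away, at -2456 and -1883 bases from a start, upstream being negative, and *Slc25a23* was in neither full list of peaks at the promoter as defined here. The FLAG control, a FLAG ChIP in cells without the tag, had a peak at 0 of the 40 promoters and at 38 of all tested ones (0.265%).

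Most carrier windows were of middling strength. Their median coverage over the antibody libraries was 78.9, beside 71.3 over all 7500 windows and 98.1 over the strongest windows at tested promoters. Peaks are called Zbtb11-high when the mean of the 4 antibody libraries lies more than 1.5 interquartile ranges above the third quartile, which here was 309. By this measure 2 of the 40 members were Zbtb11-high (5%), beside 6.08% of all tested genes.

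The strongest window belonged to *Slc25a46*, whose protein acts in mitochondrial fission and fusion. Its normalised coverage was 462, 636, 457 and 569 in the 4 antibody libraries (531 ± 87.1, SD, n = 4) and 530.3, 354 and 319 in the 3 FLAG-Zbtb11 libraries. Every antibody library lay above the limit, which was set on the antibody libraries, and the window ranked 445 of 7500 by their mean. At *Slc25a38* the antibody libraries gave 276, 338, 315 and 318 (312 ± 26.2, rank 849) and the FLAG-Zbtb11 libraries 379.9, 357 and 286. This window sat on the limit, and *Slc25a38* left the Zbtb11-high class without antibody replicate 2 or 4, which left 1 member in it.

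Next in the order came *Slc25a1*, with antibody coverage of 259 ± 27.7 and FLAG-Zbtb11 coverage of 171 ± 12.8 (SD, n = 4 and n = 3). *Slc25a32*, a carrier of folate and FAD, followed with 229 ± 19.1 and 250.3 ± 3.95. The oxoglutarate carrier *Slc25a11*, part of the malate-aspartate shuttle, had 204 ± 25.5 and 255 ± 7.44, and the carnitine-acylcarnitine carrier *Slc25a20*, which brings fatty acids in for oxidation, 180.1 ± 19.2 and 245 ± 50.2. These 4 did not reach the limit. The weakest windows were those of *Slc25a14*, with 56.7, 27.3, 23 and 17.7 in the antibody libraries, *Slc25a25*, an ATP-Mg/phosphate carrier, with 32.2, 28.9, 32.1 and 37.3, and *Slc25a16*, with 45.6, 25.6, 37.5 and 30.2. Their ranks were 6375, 6253 and 6091 of 7500, and their libraries overlapped. The RNA of *Slc25a25* stood at 23.1, 27.8 and 22.6 CPM in the EtOH control, 22.8, 25.2 and 27.6 CPM in *Zbtb11* KO and 24.3, 23 and 21.8 CPM in the 4OHT control, with overlapping groups and a log2 fold change of 0.04 ± 0.11 in *Zbtb11* KO over the EtOH control.

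**Figure D3:**
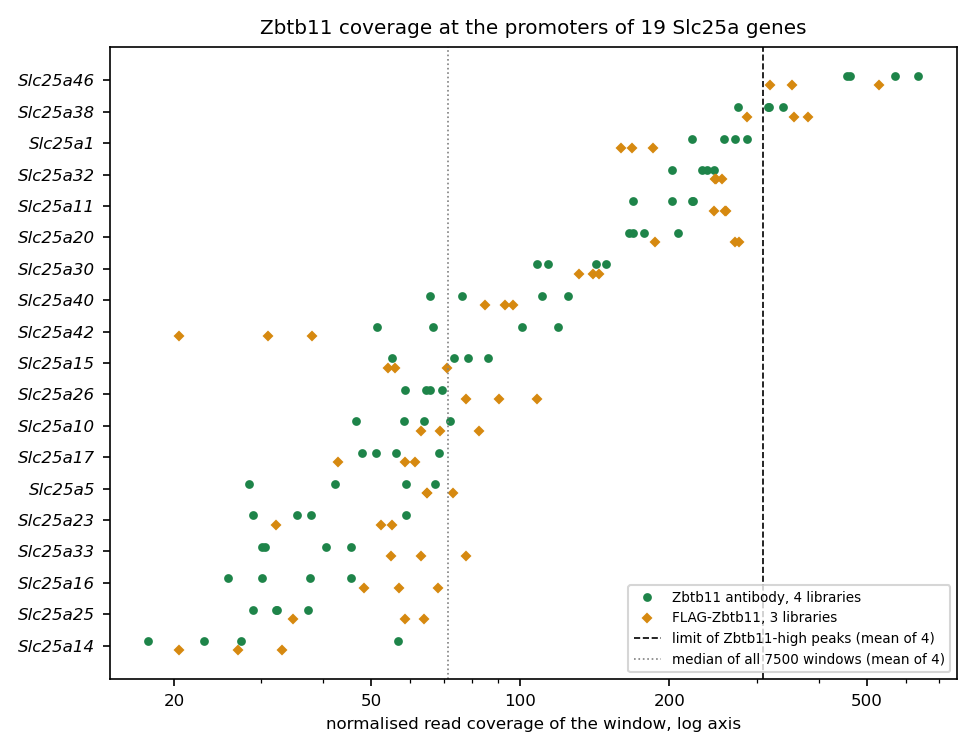
Normalised read coverage (log axis) of the strongest Zbtb11 window at 19 of the 20 carrier promoters that had one, in 4 antibody libraries (green circles) and 3 FLAG-Zbtb11 libraries (orange diamonds). The dashed line marks the limit of 309 for the mean of the antibody libraries, which *Slc25a46* and *Slc25a38* passed, and the dotted line the median of 71.3 over all windows.

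Some windows reached the promoters of a pair of genes. Of the 20 carrier windows 5 also reached the promoter of another tested gene, which were *Rnf167* for *Slc25a11*, *Crb3* for *Slc25a23*, *Naif1* for *Slc25a25*, *Dcaf13* for *Slc25a32* and *Dbf4* for *Slc25a40*. None of these 5 partners passed in *Zbtb11* KO against the EtOH control, in the fits with or without the block.

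The promoter sequences of the most strongly occupied carriers are given for *Slc25a38*, *Slc25a1*, *Slc25a32* and *Slc25a11*, with *Slc25a3* as an abundant carrier without any window. They come from the mm9 genome and run 5′ to 3′ on the strand of the gene, from 250 bases before the annotated gene start to 50 bases into the gene (chr9:120019242-120019541, plus strand; chr16:17928263-17928562, minus strand; chr15:38944213-38944512, minus strand; chr11:70460932-70461231, minus strand; chr10:90586755-90587054, minus strand). Capitals mark CCGGAAG, the core read by ETS factors such as GABP, on either strand, and in *Slc25a3* also the letters read by NRF1 (GCGCA, any base, GCGC). The promoter of *Slc25a46* is not shown, and *Slc25a1*, *Slc25a32* and *Slc25a11*, which are not Zbtb11-high, were chosen for display after their coverage was seen.
Slc25a38: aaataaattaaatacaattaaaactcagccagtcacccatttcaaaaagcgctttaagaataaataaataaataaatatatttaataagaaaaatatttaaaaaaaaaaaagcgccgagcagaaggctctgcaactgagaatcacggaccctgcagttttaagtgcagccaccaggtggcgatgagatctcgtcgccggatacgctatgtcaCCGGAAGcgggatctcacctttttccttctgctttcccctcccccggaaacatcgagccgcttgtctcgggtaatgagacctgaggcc
Slc25a1: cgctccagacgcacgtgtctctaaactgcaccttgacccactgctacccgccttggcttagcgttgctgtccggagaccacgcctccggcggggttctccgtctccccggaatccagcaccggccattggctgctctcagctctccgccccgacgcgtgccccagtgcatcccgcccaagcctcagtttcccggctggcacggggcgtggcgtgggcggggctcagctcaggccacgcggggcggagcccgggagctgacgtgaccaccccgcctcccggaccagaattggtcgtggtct
Slc25a32: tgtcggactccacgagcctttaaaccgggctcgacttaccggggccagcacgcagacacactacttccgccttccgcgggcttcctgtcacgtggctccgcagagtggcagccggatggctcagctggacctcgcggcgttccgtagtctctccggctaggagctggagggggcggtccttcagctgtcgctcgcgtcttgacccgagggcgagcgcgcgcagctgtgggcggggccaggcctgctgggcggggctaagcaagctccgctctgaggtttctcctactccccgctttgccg
Slc25a11: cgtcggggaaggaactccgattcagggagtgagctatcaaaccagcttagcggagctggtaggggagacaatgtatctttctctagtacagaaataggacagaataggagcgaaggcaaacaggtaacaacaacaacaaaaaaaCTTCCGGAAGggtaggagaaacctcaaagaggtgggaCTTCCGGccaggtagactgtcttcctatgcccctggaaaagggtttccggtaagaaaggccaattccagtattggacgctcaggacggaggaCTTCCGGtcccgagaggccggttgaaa
Slc25a3: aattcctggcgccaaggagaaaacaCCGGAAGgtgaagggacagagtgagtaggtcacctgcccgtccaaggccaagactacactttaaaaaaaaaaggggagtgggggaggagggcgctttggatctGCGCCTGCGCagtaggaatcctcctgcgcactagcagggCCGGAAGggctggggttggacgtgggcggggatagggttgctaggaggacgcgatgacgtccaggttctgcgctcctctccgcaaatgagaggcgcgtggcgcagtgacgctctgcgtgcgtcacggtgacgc

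In these sequences the ETS core occurred once in *Slc25a38*, at -38 from the start, and 4 times in *Slc25a11*, where the matches at -106 and -103 are 1 palindromic stretch read on both strands. It was absent from the sequences of *Slc25a1* and *Slc25a32*, both of which had a window. In *Slc25a3* it occurred at -225 and -83, with the NRF1 letters at -122. Over all members 7 of 40 promoters of this length held CCGGAAG (17.5%, beside 15.7% over 14345 tested promoters), 6 of the 20 with a Zbtb11 window and 1 of the 20 without. The letters were also in 29.4% of the central 300 bases of all 7500 windows, a region placed by the peak and not by the gene start, so the share in carriers with a window (30%) lay near that of windows in general. The other members with a match were *Slc25a17*, *Slc25a20*, *Slc25a25* and *Slc25a26*. The NRF1 letters were present in 2 of 40 members (5%, beside 9% over tested promoters), *Slc25a3* and *Slc25a31*, both without a window. A match is a description of the letters only.

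Occupancy was then set beside expression. The 20 members with a window had a median log2 fold change of 0.04 in *Zbtb11* KO against the EtOH control and the 20 without one 0.01, and 0 passed in either. Over all tested genes, 112 of the 872 with a Zbtb11-high promoter peak were lower in *Zbtb11* KO (12.8%) and 8 were higher. Of the 3587 with a weaker peak 2 were lower, of the 9887 without a peak 7 were lower, and 0 were higher in either. Within the Zbtb11-high class the lower genes lay mostly above the carriers. Of the 515 genes whose strongest promoter window exceeded that of *Slc25a46*, a division chosen after its value was seen, 107 were lower (20.8%) and 8 higher, and no carrier was among them. Between the limit and *Slc25a46*, where both Zbtb11-high carriers lay, 5 of 357 genes were lower (1.40%). *Slc25a46* itself had 42.8, 44.5 and 44.9 CPM in the EtOH control, 45.6, 44.1 and 41 CPM in *Zbtb11* KO and 43.5, 49.2 and 53 CPM in the 4OHT control, with a log2 fold change of -0.02 and a 95% interval of -0.22 to 0.19. The groups overlapped, and the interval for *Slc25a38* was -0.35 to 0.67, or -0.04 to 0.34 with the block.

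**Figure D4:**
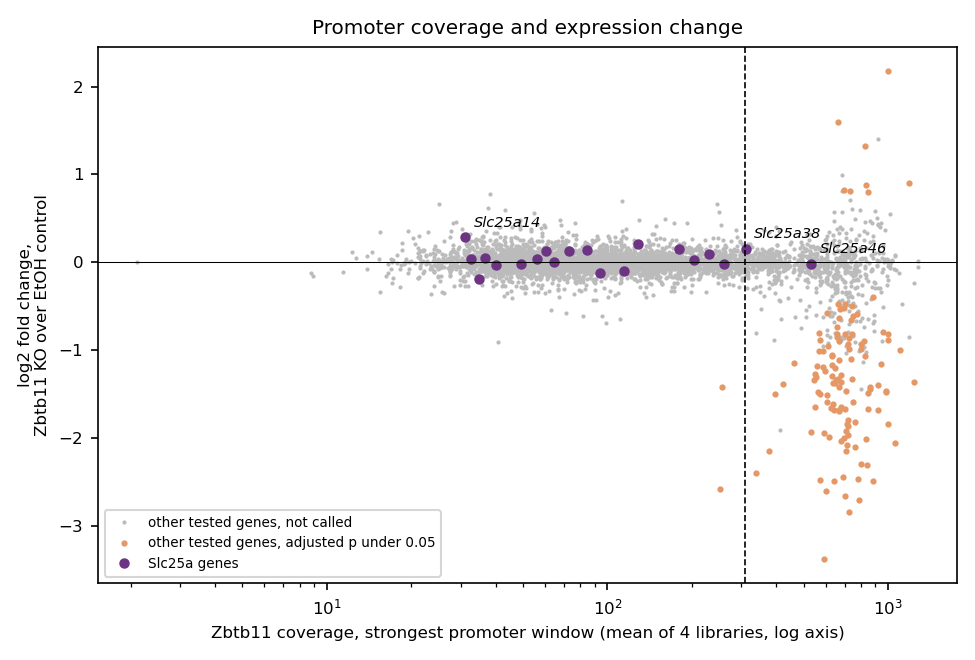
Mean Zbtb11 coverage of the strongest promoter window (4 antibody libraries, log axis) against the log2 fold change in *Zbtb11* KO over EtOH control, for the 4459 tested genes with a window. The 20 carriers (purple) stay between -0.19 and 0.29, and no carrier lies in the range above 531 that holds most of the genes past the threshold (orange); the dashed line is the Zbtb11-high limit of 309.

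The 4OHT control shows the carriers in wild-type cells that kept Zbtb11 and received 4OHT. It differs from the EtOH control in line and in treatment, which cannot be told apart. Against the EtOH control 0 of 40 members passed with all libraries and no block (adjusted p of at least 0.0508), beside 4.05% of all tested genes, and 6 had an unadjusted p under 0.05. DESeq2 called 2, *Slc25a4* and *Slc25a15*, beside 8.27%. Library sizes in place of TMM factors also gave 2, beside 4.11%. Without replicate 1 there were 8 (20% of members beside 17.1% of all tested genes). With the replicate block there were 14 (35% beside 33.6%), of which 9 were higher and 5 lower, where 17% of all tested genes were higher and 16.5% lower. The members without replicate 1 were *Slc25a4*, *Slc25a15* and *Slc25a36*, which were higher, and *Slc25a12*, *Slc25a17*, *Slc25a31*, *Slc25a43* and *Slc25a48*, which were lower. In both edgeR fits with these calls the share of carriers lay near that of all genes. *Zbtb11* KO against the 4OHT control, which uses the same 4OHT control libraries, gave 0 of 40 beside 6.45% of all tested genes, with 7 at an unadjusted p under 0.05. Both groups had 4OHT and they differ in line as well as in Zbtb11, so line and deletion cannot be told apart there. DESeq2 called *Slc25a4* and *Slc25a31* in this comparison, beside 10.2%. Without replicate 1 there were 9 of 40 (22.5% beside 18.7%), and with the block 12 (30% beside 34.9%). With the block, *Zbtb11* KO was higher than the 4OHT control for *Slc25a43* (log2 fold change 1.00), *Slc25a31* (0.72), *Slc25a10* (0.42), *Slc25a12* (0.33), *Slc25a17* (0.26) and *Slc25a22* (0.24), and lower for *Slc25a15* (-0.31), *Slc25a4* (-0.26), *Slc25a36* (-0.25), *Slc25a11* (-0.21), *Slc25a39* (-0.18) and *Slc25a1* (-0.18).

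Of the ADP/ATP carriers, *Slc25a4* was higher in the 4OHT control with the block, *Slc25a31* was lower (-0.60) and *Slc25a5* had a log2 fold change of -0.01 (adjusted p = 0.913). *Slc25a4* had 173, 194 and 177 CPM in the EtOH control, 186, 185 and 197 CPM in *Zbtb11* KO and 233, 214 and 233 CPM in the 4OHT control. All 3 libraries of the 4OHT control lay above the other 6, by 0.32 ± 0.08 (log2, SE) over the EtOH control, with an adjusted p of 0.0508 by edgeR without the block and 0.000272 with it. The phosphate carrier *Slc25a3* had 283, 317 and 322 CPM in the EtOH control, 301, 312 and 335 CPM in *Zbtb11* KO and 318, 355 and 360.1 CPM in the 4OHT control, with a log2 fold change of 0.16 ± 0.05 (adjusted p = 0.0157 with the block) and overlapping groups. *Slc25a36*, which carries pyrimidine nucleotides, had 275, 175 and 167 CPM in the EtOH control, 267, 181 and 156 CPM in *Zbtb11* KO and 306, 211 and 198 CPM in the 4OHT control. It was higher than the EtOH control in 3 of 3 pairs (adjusted p = 0.0022 with the block by edgeR), but replicate 1 lay above replicates 2 and 3 in every group and the groups overlapped.

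Among the carboxylate carriers, *Slc25a11* had 62.4, 71.6 and 66.8 CPM in the EtOH control, 62.6, 70.1 and 71.8 CPM in *Zbtb11* KO and 77.6, 80.2 and 78.9 CPM in the 4OHT control. The 4OHT control lay above both other groups with no overlap, by 0.24 ± 0.06 over the EtOH control (adjusted p = 0.00279 with the block, 0.167 without it). *Slc25a1* had 90.8, 70.8 and 69.2 CPM in the EtOH control, 84.9, 69.8 and 73.1 CPM in *Zbtb11* KO and 108, 79.9 and 72.2 CPM in the 4OHT control, and passed with the block only (log2 fold change 0.16, adjusted p = 0.0464). The dicarboxylate carrier *Slc25a10* had 7.54, 11.1 and 9.97 CPM in the EtOH control, 7.67, 10.8 and 12.8 CPM in *Zbtb11* KO and 5.41, 10.0 and 7.94 CPM in the 4OHT control, and was higher in *Zbtb11* KO than in the 4OHT control by 0.42 ± 0.12 with the block (adjusted p = 0.00961), with overlapping groups. The glutathione carrier *Slc25a39* had 233, 235 and 215 CPM in the EtOH control, 233, 245 and 209.6 CPM in *Zbtb11* KO and 289, 257 and 237 CPM in the 4OHT control, a log2 fold change of 0.19 in the 4OHT control over the EtOH control (adjusted p = 0.00976 with the block).

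Carriers of amino acids and related substrates came next. *Slc25a15* brings ornithine into the matrix for the urea cycle. It had 34.3, 42 and 40.3 CPM in the EtOH control, 40.2, 42.8 and 44.8 CPM in *Zbtb11* KO and 49.3, 50.4 and 59.2 CPM in the 4OHT control. No library of the 4OHT control overlapped another group, and the log2 fold change over the EtOH control was 0.45 ± 0.11 (adjusted p = 0.055 without the block and 2.81e-05 with it). *Slc25a12* went the other way, with 43.2, 54.2 and 57.5 CPM in the EtOH control, 45.7, 53 and 54.6 CPM in *Zbtb11* KO and 36.4, 41.3 and 44.8 CPM in the 4OHT control. It was lower in the 4OHT control than in the EtOH control in 3 of 3 pairs, with a log2 fold change of -0.34 ± 0.06 (adjusted p = 0.000198 with the block, 0.209 without it). Its paralogue *Slc25a13*, given above, had a log2 fold change of 0.06 (adjusted p = 0.4 with the block). *Slc25a20* had 16.5, 25.3 and 21.5 CPM in the EtOH control, 19.1, 25.1 and 25.8 CPM in *Zbtb11* KO and 21.6, 29.4 and 24.5 CPM in the 4OHT control, and was higher in the 4OHT control than in the EtOH control in 3 of 3 pairs (log2 fold change 0.25, adjusted p = 0.0183 with the block). *Slc25a22* had 18.8, 21.1 and 23 CPM in the EtOH control, 19.8, 24 and 22.6 CPM in *Zbtb11* KO and 16.6, 19.2 and 20.2 CPM in the 4OHT control, and passed only for *Zbtb11* KO against the 4OHT control with the block, by 0.24 (adjusted p = 0.0188).

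The remaining carriers past the threshold in a fit fell in several classes. *Slc25a17*, which carries cofactors into peroxisomes, had 49, 48.4 and 46.7 CPM in the EtOH control, 53.2, 46.8 and 47.4 CPM in *Zbtb11* KO and 46.8, 37.3 and 39.8 CPM in the 4OHT control, lower in the 4OHT control than in *Zbtb11* KO in 3 of 3 pairs, with the highest 4OHT control library level with the lowest KO library (log2 fold change 0.26 for KO over 4OHT control, adjusted p = 0.00378 with the block). *Slc25a31* had 3.59, 4.74 and 4.34 CPM in the EtOH control, 5.58, 4.35 and 4.02 CPM in *Zbtb11* KO and 3.01, 2.43 and 2.97 CPM in the 4OHT control, lower in the 4OHT control than in every other library, with a log2 fold change of -0.60 ± 0.18 against the EtOH control (adjusted p = 0.0133 with the block). *Slc25a43*, of unassigned substrate, had 2.03, 2.01 and 1.62 CPM in the EtOH control, 1.22, 2.27 and 2.28 CPM in *Zbtb11* KO and 1.1, 0.901 and 0.975 CPM in the 4OHT control. The 4OHT control was lowest with no overlap (log2 fold change against the EtOH control -0.95 ± 0.27, adjusted p = 0.00917 with the block), but its values there are counts of 16 to 22 reads per library. *Slc25a48* had 1.35, 1.54 and 1.06 CPM in the EtOH control, 1.28, 1.21 and 1.09 CPM in *Zbtb11* KO and 1.44, 0.406 and 0.488 CPM in the 4OHT control. The log2 fold change against the EtOH control was -0.85 with all libraries and -1.53 without replicate 1 (adjusted p = 0.355 and 0.0131). With the block and all libraries it was -0.90 (adjusted p = 0.0397). The 4OHT control values of *Slc25a48* are counts of 21, 9 and 11 reads, and its replicate 1 lay above replicate 1 of the EtOH control. *Slc25a30* passed with the block (0.33, adjusted p = 0.0101), and *Slc25a46* passed only for *Zbtb11* KO against the 4OHT control without replicate 1, with a log2 fold change of -0.27 (adjusted p = 0.0313).

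**Figure D5:**
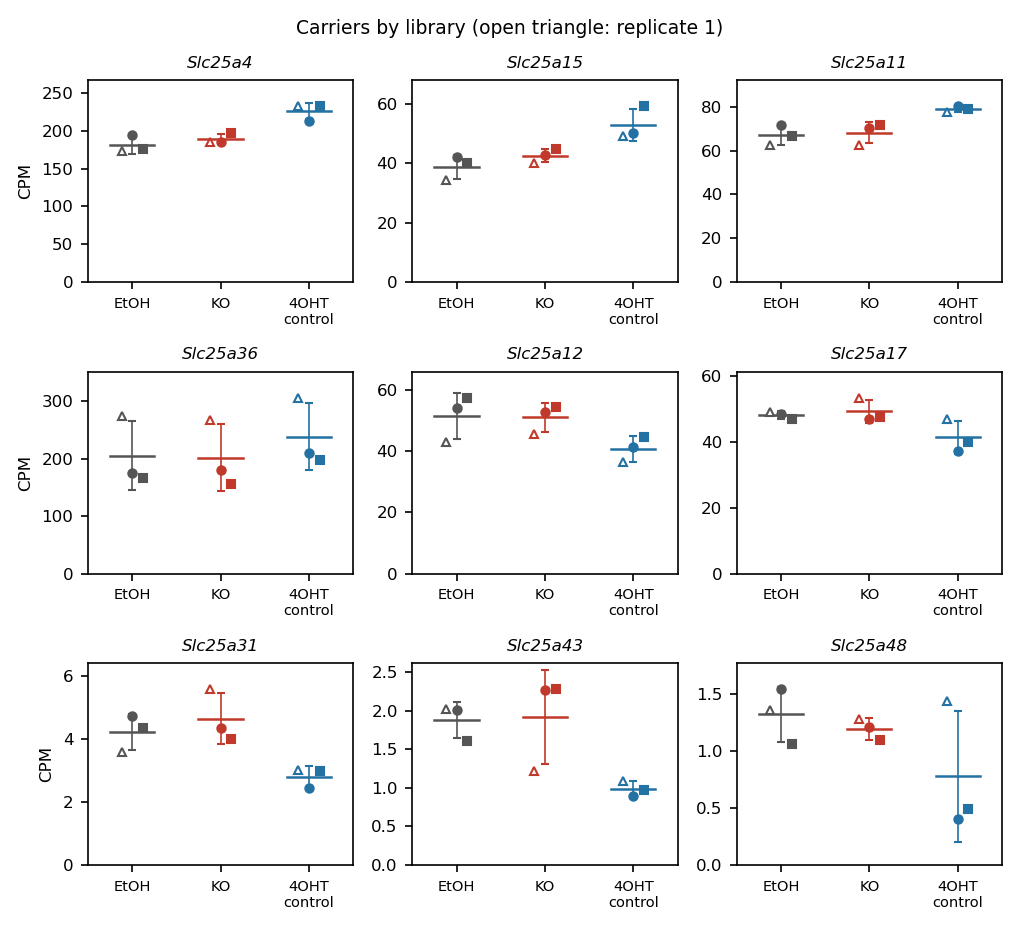
CPM of 9 carriers in the 3 groups, with 1 point per library (open triangles replicate 1, circles replicate 2, squares replicate 3), the group mean (line) and SD (bar, n = 3). The EtOH control and *Zbtb11* KO overlap in all 9 genes, and the 4OHT control lies above both in *Slc25a4*, *Slc25a15* and *Slc25a11* and below both in *Slc25a31* and *Slc25a43*.

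Read by group, 7 of 40 members had 4OHT control libraries that did not overlap those of the EtOH control (17.5%, beside 21.7% of all tested genes) and 9 had *Zbtb11* KO libraries that did not overlap the 4OHT control (22.5%, beside 22.9%). The *Slc25a* share of reads on genes was 0.208 to 0.222% in the EtOH control, 0.217 to 0.231% in *Zbtb11* KO and 0.227 to 0.246% in the 4OHT control. Of the 7 ESC markers 0 passed in this comparison with all libraries and no block, 3 without replicate 1 and 4 with the block, beside the 33.6% of all tested genes in the last of these fits. With the block, *Klf4* (log2 fold change 0.44), *Zfp42* (0.21) and *Pou5f1* (0.20) were higher in the 4OHT control and *Nanog* (-0.36) was lower, while *Sox2*, *Esrrb* and *Tdgf1* did not pass (0.003, 0.10 and 0.08). Before TMM normalisation, the 7 ESC markers summed to 3713 to 4060 CPM in the EtOH control and 4040 to 4285 CPM in the 4OHT control. On the same scale the 8 differentiated cell markers, none of which was at 0 in a whole group, summed to 23.7 to 28.6 CPM and 19.9 to 28.1 CPM. The part of these differences in the carrier values was not tested.

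Replicate 1 set some carriers apart in every group. In 12 of the 40 members the 3 libraries of replicate 1 did not overlap the 6 of replicates 2 and 3 (30%, beside 35.8% of all tested genes), 6 higher and 6 lower, where 18.3% of all tested genes were higher and 17.5% lower. Among the higher ones were *Slc25a1*, *Slc25a23*, *Slc25a30*, *Slc25a36* and *Slc25a42*, and the ratio of replicate 1 to the other replicates was largest for *Slc25a30*, at 2.09, and 1.57 for *Slc25a36*. The lower ones were *Slc25a5*, *Slc25a10*, *Slc25a16*, *Slc25a26*, *Slc25a34* and *Slc25a38*, with a ratio of 0.706 for *Slc25a38*.

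Carriers of the same family under other symbols (*Ucp2*, *Mtch1*, *Mtch2*, *Mcart1* and *Mcart6*) formed a separate list, and *Ucp1* and *Ucp3* stayed below the filter. Of the 5 expressed genes 0 passed in *Zbtb11* KO against the EtOH control. *Ucp2*, which exports C4 metabolites from the matrix, and *Mtch1*, a family member of the outer membrane, were higher in the 4OHT control than in the EtOH control. *Ucp2* had 110.4, 122 and 111 CPM in the EtOH control, 126, 134 and 109.5 CPM in *Zbtb11* KO and 175, 174 and 149.5 CPM in the 4OHT control, a log2 fold change of 0.54 ± 0.10 over the EtOH control (adjusted p = 0.0209). *Mtch1* had 52.1, 56.5 and 54.5 CPM in the EtOH control, 53.1, 52.9 and 56.8 CPM in *Zbtb11* KO and 88.9, 78 and 78.7 CPM in the 4OHT control, a log2 fold change of 0.59 ± 0.08 (adjusted p = 0.00643). In both genes the 4OHT control libraries lay above the other 6. The list of 20 other expressed mitochondrial membrane transporters, with the pyruvate carrier, the outer membrane channels and the calcium uniporter, had 0 genes past the threshold in *Zbtb11* KO against the EtOH control (log2 fold changes -0.19 to 0.23). Against the EtOH control the 4OHT control had 0 of these 20 with all libraries and no block, 1 without replicate 1 (*Abcb8*, adjusted p = 0.0408) and 4 with the block, all higher (20% of the list, beside 17% of all tested genes higher in that fit). These were the outer membrane channel *Vdac3* (log2 fold change 0.17, adjusted p = 0.0478 by edgeR), the sideroflexin *Sfxn3* (0.38, adjusted p = 0.015), *Efha1*, the uniporter regulator now named *Micu2* (0.34, adjusted p = 0.00367), and the transporter *Abcb8* (0.27, adjusted p = 0.00979). In *Zbtb11* KO against the 4OHT control, *Sfxn3* (-0.33), *Efha1* (-0.28) and the outer membrane channel *Vdac2* (-0.15) were among the genes of this list that were lower with the block.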

How the data were processed

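RNA-seq was measured in 9 libraries and Zbtb11 ChIP-seq in 4 antibody, 3 FLAG-Zbtb11 and 2 FLAG control libraries; inputs were not analysed here. The authors deposited raw read counts for each gene, made by trimming paired reads from directional libraries, alignment with STAR to the transcriptome and counting with HTSeq (strand setting and versions not given in the sources used here). Rows naming no gene were left out, 25.3 to 31.6% of reads as no feature and 0.79 to 0.905% as ambiguous. Intervals of fold changes cover the spread between these replicates only. The deposited ChIP-seq coverage (signal) values were made by the authors with Bowtie 1.1.2 on mm9, MACS2 and DiffBind, over consensus peaks, and normalised between libraries. Peak lists give 1 set of positions per ChIP, from its replicates together.

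The 14346 genes past the filter on CPM went into edgeR 4.0.16 under R 4.3.3 (TMM factors, two-sided quasi-likelihood test in its legacy form, 1 dispersion trend for the 3 groups), with Benjamini-Hochberg adjustment across all of them and a threshold of 0.05. All adjusted p of single genes are from edgeR unless DESeq2 (1.42.0) is named. CPM in the text are TMM-normalised, apart from those of the filter and where stated. Replicate numbers paired the libraries: same-numbered libraries of different groups correlated in their deviations from the group means by 0.476 to 0.844 over all 9 such pairs, so the fit with the replicate block is given where it changes a call. Replicates 2 and 3 were less clearly separated: differently numbered libraries reached 0.555, and replicate 2 of the EtOH control and of *Zbtb11* KO correlated more with replicate 3 of the 4OHT control than with its replicate 2. Simulated counts for *Zbtb11* KO against the EtOH control (14179 genes, 200 changed) gave 144 calls, of which 5.56% were false, with 4 of 50 genes recovered at a log2 fold change of -0.5, 40 of 50 at -1 and 50 of 50 at -2. The changed genes were drawn only from genes above a CPM floor higher than that of the filter, so recovery at the lowest levels was not simulated.

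The members and gene lists were chosen with earlier results of these data known. Values by library are given for members past the threshold in a fit, the 3 highest and 3 lowest fold changes in *Zbtb11* KO, the 5 highest RPKM, members with a Zbtb11-high or one of the 3 weakest windows, and the 4 aspartate-glutamate and glutamate carriers. The alternatives tried were other filters, DESeq2, unscaled library sizes, fewer libraries, other promoter widths, peak lists and limits. Near-identical sequence was sought with blastn 2.17.0 in mm9. Letters were searched on both strands of 300 bases per promoter. Values of 1 member and of 1 other transporter are not reported here, and the counts include both.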

Additional observations from a re-analysis of the deposited data

How the results depend on the processing

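For *Zbtb11* KO against the EtOH control the count of carriers past the threshold was 0 in all alternatives tried. For the 4OHT control against the EtOH control it was 0 with all libraries (beside 4.05% of all tested genes) and 2 with DESeq2 (beside 8.27%). It was 2 with library sizes in place of TMM (beside 4.11%), 14 with the replicate block (beside 33.6%) and 8 without replicate 1 (beside 17.1%). With the block and without replicate 1 it was 11. It was 1 without replicate 1 of the 4OHT control, 1 without replicate 1 of *Zbtb11* KO, and 0 when any other replicate or library was left out. For *Zbtb11* KO against the 4OHT control it was 2 with DESeq2 (beside 10.2%), 12 with the replicate block (beside 34.9%) and 9 without replicate 1 (beside 18.7%). With the block and without replicate 1 it was 11. It was 1 without replicate 1 of the 4OHT control, 1 without replicate 1 of *Zbtb11* KO, and 0 when any other replicate or library was left out. In both comparisons the counts of 11 and of 1 are given without the share over all tested genes. They are therefore not read as a result about the carriers. The replicate number pairs the libraries, and the block changed no call of a carrier in *Zbtb11* KO against the EtOH control. No called fold change of a carrier changed sign. The median log2 fold change of the members in *Zbtb11* KO was 0.066 with library sizes in place of TMM and -0.00795 to 0.050 when 1 replicate or library was left out. The count of carrier promoters with a window or peak was 18 to 20 under all alternatives. The share over all tested genes moved more, from 28.1% with the gene start only to 36.4% with all FLAG-Zbtb11 peaks not shared with the FLAG control. The Zbtb11-high count was 0 when the top 5% of peaks were taken, and 1 to 2 when 1 antibody library was left out. The cause of these differences was not tested. Fold changes of -0.5 (log2) were rarely recovered (4 of 50) in simulated counts tested without the block. Differences of that size or smaller in the carriers are therefore mostly below what that fit could call. The simulation did not cover changes in the carriers with the lowest CPM.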
